A study of Mus musculus with 12 samples.

Results

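The 44 mouse genes whose symbol names a collagen alpha chain (Col, a type number, a and a chain number) were taken from a table of 41214 genes, and 41 of the 44 had enough counts to be tested. Collagens are the structural proteins of the extracellular matrix, built from 3 alpha chains wound into a triple helix, and each type has its own partners. Fibrillar collagens form the tensile fibres of connective tissue and vessel walls. Basement membrane collagens form the sheet on which endothelium rests, and cartilage collagens are best known from skeleton and are also made by valve-forming and other mesenchymal cells. Following these roles, the genes were grouped into 8 fibrillar, 8 basement membrane and 7 cartilage genes, and 21 others in 5 smaller classes.

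The study profiled sorted endothelium of mouse embryonic ventricles, asking how endocardium, the lining of the heart chambers, differs from coronary endothelium, the lining of the heart's own vessels, at E13 and E17. E13 and E17 are the days in the sample labels, and the study design gives E13.5 and E17.5. There were 4 endocardial and 4 coronary libraries at E13 and 2 of each at E17, with 14973633 to 27360653 expected counts per library. All libraries come from live, Ter119-negative, CD45-negative, CD31-positive cells, where Ter119 marks red cells, CD45 white cells and CD31 (Pecam1) endothelium, after atria and the aortic region were cut away. All embryos carried Nes-gfp, a green reporter under Nestin (Nes) sequences. At E13 the genotype was Nes-gfp(Tg/0), the endocardial gate was GFP-low and high for endomucin (Emcn), and the coronary gate was GFP-positive. At E17 the embryos were Nes-Gfp(Tg/0) and carried Nes-CreER(Tg/0), a tamoxifen-dependent recombinase under Nestin sequences, with R26(tom/+), the Tomato reporter it switches on, and tamoxifen (0.1 ug) was given at E15.5. The E17 endocardial gate was CD31-positive and GFP-positive, and the E17 coronary cells were sorted through 1 of 2 gates, both low for Emcn, one Tomato-positive (arterial and capillary) and one Tomato-negative and GFP-low (venous). Which gate the E17 coronary libraries passed through is not given, nor how many embryos went into a library. Stage, genotype, tamoxifen and gate therefore cannot be told apart in any comparison of E17 with E13. Replicates share a batch label across populations, 1 endocardial and 1 coronary library in each batch. The labels do not say whether replicates are separate litters, so p-values measure only the spread between these libraries.

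Levels are given as CPM, expected counts scaled to a TMM-adjusted library total of 1000000, and as CPM per kb of exon where genes are compared with each other. Differences are log2 fold changes with their standard error (SE) from edgeR's quasi-likelihood test, in 1 fit over 12 libraries, and a difference is called where the Benjamini-Hochberg adjusted p is under 0.05. Endothelial identity was checked first. Pecam1 lay between 861 and 2141 CPM in all 12 libraries, and Emcn was lower in coronary libraries at both stages (134 to 185 against 519 to 547 CPM at E13, 211 and 230.3 against 875 and 1108 CPM at E17), in the direction of the gates. Markers of other cell types were also detected. The summed level of 12 fibroblast markers was 689.8 to 874 CPM in the E13 endocardial, 904 to 2334 CPM in the E13 coronary, 1576 and 1695 CPM in E17 endocardial and 740.4 and 1506 CPM in E17 coronary libraries, and none of the 12 was at 0 in any group. Much of this sum was periostin (Postn, 487 to 1438 CPM over the libraries). In bulk RNA, more cells of another type and more RNA per endothelial cell cannot be told apart.

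At E13, 22 of the 41 collagen genes tested were higher in coronary libraries, 13 were lower and 6 did not pass. Over all 15171 genes tested the corresponding shares were 30.1% higher and 29.9% lower. The median log2 difference of the 41 genes was 1.00, against -0.02 for all genes tested. By class, 7 of 8 fibrillar genes were higher and 1 was lower, 5 of 6 cartilage genes tested were higher, all 4 transmembrane collagens were lower, and of 8 basement membrane genes 1 was higher and 4 were lower. At E17, 13 were higher, 17 were lower and 11 did not pass, with 26.5% and 26.1% of all genes called in those directions and a median of 0.27 against -0.01. Of the 41 genes, 11 were higher and 10 were lower in coronary libraries at both stages, and 4 were called in opposite directions: Col4a1 and Col4a2 went from lower to higher, Col5a1 and Col24a1 from higher to lower. These joint calls were counted for the members only, with no joint share over all genes. Within batches, 27 of the 28 members that reached 10 CPM in a group had 1 sign in all E13 batches, Col6a3 being the exception, and 23 of 28 did at E17. Batch signs were not counted over all genes, so whether this is particular to collagens was not tested.

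**Figure D1:**
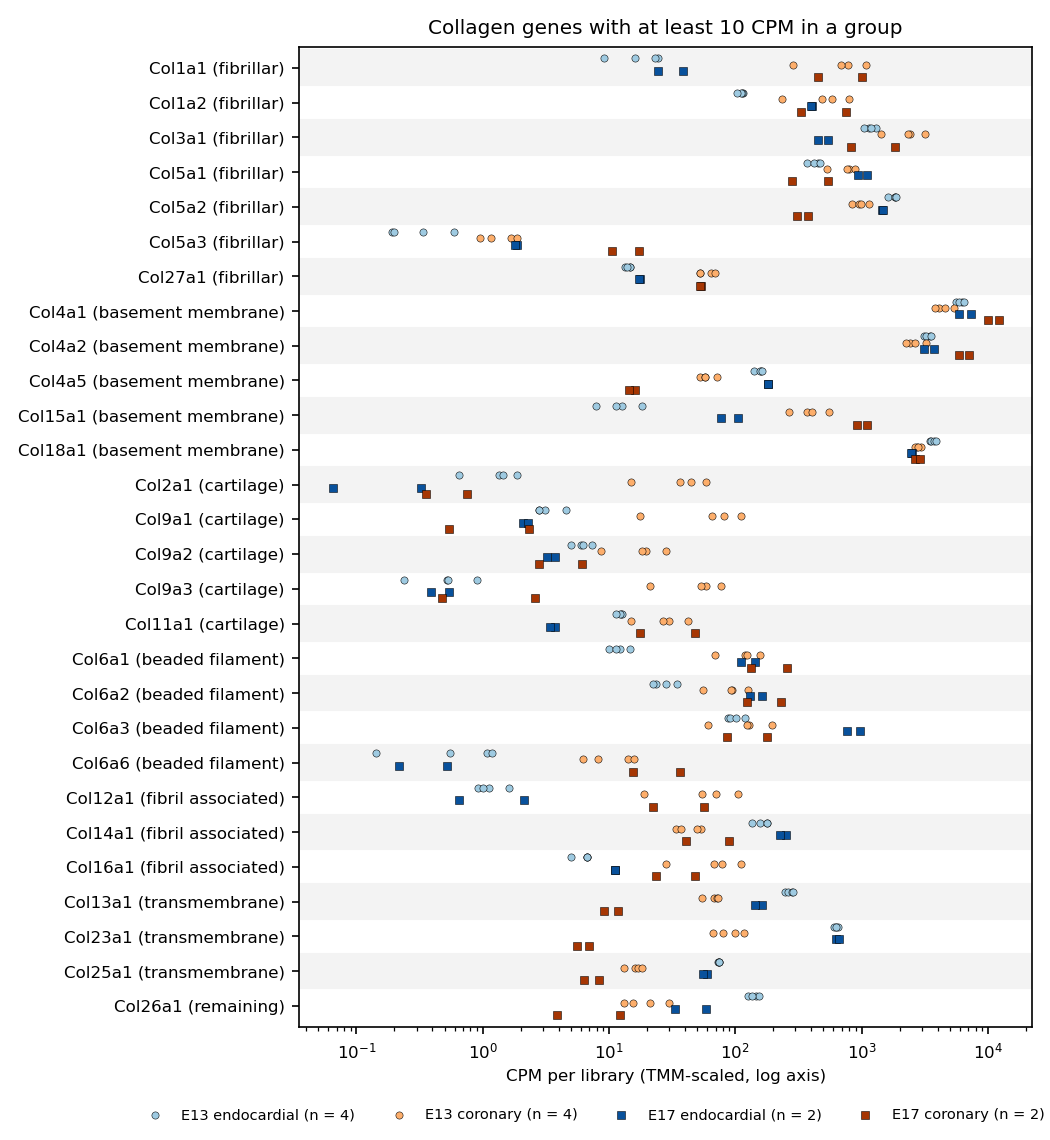
CPM per library (log axis) of the 28 collagen genes that reached 10 CPM in a group, ordered by class, with 1 point per library in 4 colours for the groups. Col4a1, Col4a2 and Col18a1 lie at 2265 CPM or above in every library, Col1a1 and Col15a1 are far higher in coronary libraries, and Col23a1 falls to 6.93 and 5.57 CPM in E17 coronary libraries.

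Fibrillar collagens are taken first. Col1a1 (ENSMUSG00000001506, chr11:94936224-94953042, plus strand, GRCm38), the main chain of type I collagen, read 24.6, 9.22, 23.0 and 16.1 CPM in E13 endocardial replicates 1 to 4 and 285, 787, 1084 and 687 CPM in E13 coronary replicates 1 to 4. At E17 it read 38.3 and 24.3 CPM in endocardial and 1010.0 and 449.9 CPM in coronary replicates 1 and 2. The groups did not overlap at either stage, and coronary replicate 1 was the lowest at E13 and the highest at E17. The difference was 5.28 (SE 0.47, adjusted p = 1.25e-06) at E13 and 4.54 (SE 0.64, adjusted p = 7.19e-05) at E17, with no call between stages in either population.

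Col1a2, the partner chain of type I, differed from Col1a1 in endocardium. It read 115, 114, 110.3 and 104 CPM in the E13 endocardial, 235, 582, 795 and 489.6 CPM in the E13 coronary, 406 and 397 CPM in E17 endocardial and 749 and 329 CPM in E17 coronary libraries. The E17 endocardial values lie between those of the coronary pair. The coronary excess was 2.25 at E13 (SE 0.32, adjusted p = 6.65e-05), the value at E17 was 0.42 (SE 0.43, adjusted p = 0.437), and endocardium rose by 1.86 from E13 to E17 (SE 0.36, adjusted p = 0.00204). The stage change of the difference, -1.82, was called (adjusted p = 0.0206), but not without either E17 endocardial replicate or E17 coronary replicate 2 (adjusted p = 0.0511 to 0.104).

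Col3a1 (ENSMUSG00000026043, chr1:45311538-45349706, plus strand), the chain of type III collagen in elastic tissues and vessels, was abundant in endocardium as well. Its E13 values were 1142, 1054, 1307 and 1188 CPM in endocardial and 1435, 2416, 3165 and 2338 CPM in coronary libraries. At E17 it stood at 539 and 451 CPM in endocardial and 1829 and 824 CPM in coronary libraries. Coronary libraries were all above the endocardial libraries of the same stage, by 1.00 (SE 0.24, adjusted p = 0.00356) and 1.42 (SE 0.35, adjusted p = 0.00433), and the E17 call is lost without E17 coronary replicate 1 (0.75, adjusted p = 0.0739). Endocardial Col3a1 fell by 1.24 from E13 to E17 (SE 0.31, adjusted p = 0.00957), a call lost without E17 endocardial replicate 2 (adjusted p = 0.0905). The 250 bases upstream of its RefSeq start (GRCm38.p6, chr1:45311288-45311537, plus strand) are shown because Col3a1 was the highest fibrillar chain per kb in coronary libraries at both stages, with capitals for 1 TATAAA and 2 CAGACA matches:
Col3a1: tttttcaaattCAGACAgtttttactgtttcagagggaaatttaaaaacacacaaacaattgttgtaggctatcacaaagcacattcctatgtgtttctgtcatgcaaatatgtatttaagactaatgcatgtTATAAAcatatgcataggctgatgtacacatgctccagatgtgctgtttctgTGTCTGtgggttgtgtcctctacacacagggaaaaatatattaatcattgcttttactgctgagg

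Type V collagen, whose chains Col5a1 and Col5a2 enter the core of type I fibrils and set their width, gave the reverse picture at E17. Col5a1 read 453, 368, 423 and 465 CPM in the E13 endocardial and 529.9, 795, 893 and 763 CPM in E13 coronary libraries. It read 929.6 and 1096 CPM in E17 endocardial against 540.1 and 284 CPM in E17 coronary libraries. The coronary difference thus went from 0.80 (SE 0.19, adjusted p = 0.00278) to -1.30 (SE 0.27, adjusted p = 0.00145), and its stage change was -2.10 (SE 0.33, adjusted p = 0.000436). Col5a2 was lower in coronary libraries at both stages, with 1846, 1618, 1858 and 1872 against 848, 949, 1152 and 994 CPM at E13 and 1464 and 1469 against 378 and 309 CPM at E17. Those differences were -0.87 (SE 0.09, adjusted p = 5.52e-06) and -2.09 (SE 0.13, adjusted p = 1.02e-07). Col5a2 was the 1 fibrillar gene lower in coronary libraries at E13, and its gene lies on chromosome 1, 24614 bp from Col3a1, which was higher.

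The less abundant fibrillar chains were Col27a1, Col5a3 and Col24a1. Col27a1 was tight among replicates, at 14.62, 13.55, 14.59 and 13.80 CPM in the E13 endocardial, 52.6 to 68.9 CPM in the E13 coronary, 17.7 and 17.4 CPM in E17 endocardial and 53.7 and 52.4 CPM in E17 coronary libraries. Its coronary excess was 2.08 (SE 0.09, adjusted p = 4.50e-09) at E13 and 1.60 (SE 0.12, adjusted p = 4.89e-07) at E17. Col5a3 rested on few counts at E13 (27 endocardial, 115 coronary), where the pooled CPM ratio was 4.84 (exact 95% interval 3.16 to 7.66, counting error only), and it reached 17.4 and 10.6 CPM in E17 coronary libraries against 1.86 and 1.81 CPM in endocardial ones. Col5a3 rose with stage in both populations, by 2.48 in endocardial (adjusted p = 0.000714) and 3.29 in coronary libraries (adjusted p = 4.67e-06). Col24a1 stayed under 10 CPM and was called higher in coronary libraries at E13 (1.79, SE 0.28, adjusted p = 0.000159) and lower at E17 (-1.22, SE 0.41, adjusted p = 0.0236), the latter lost without E17 endocardial replicate 2 or E17 coronary replicate 2 (adjusted p = 0.164 and 0.197).

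Basement membrane collagens carried most of the collagen signal. Col4a1 (ENSMUSG00000031502, chr8:11198423-11312826, minus strand) and Col4a2 (ENSMUSG00000031503, chr8:11312805-11449287, plus strand) encode the heterotrimer of nearly all basement membranes and are transcribed away from each other. Their annotated starts are 21 bp apart and their first exons overlap by 22 bp, so that reads there could belong to either gene.

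Col4a1 read 6216, 5596, 5941 and 6479.7 CPM in the E13 endocardial and 5438, 4079, 3839 and 4584 CPM in E13 coronary libraries. It read 5929.9 and 7361 CPM in E17 endocardial and 10079 and 12193 CPM in E17 coronary libraries. Coronary libraries were below all endocardial ones at E13 and above both at E17. The difference was -0.43 (SE 0.11, adjusted p = 0.00432) and then 0.74 (SE 0.15, adjusted p = 0.00148), with a coronary rise of 1.31 between stages (SE 0.13, adjusted p = 5.00e-06) and no endocardial call (0.13, adjusted p = 0.490). Per kb of exon, Col4a1 ranked 12 among all genes in E17 coronary libraries and 26 to 50 in the other groups.

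Col4a2 read 3479, 3113, 3246 and 3536 CPM in the E13 endocardial and 3244, 2440.1, 2265 and 2669 CPM in E13 coronary libraries, with coronary replicate 1 inside the endocardial range. It read 3111 and 3729 CPM in E17 endocardial and 5963 and 7076 CPM in E17 coronary libraries. The E13 difference of -0.33 (SE 0.11, adjusted p = 0.0160) is lost without E13 coronary replicate 2 or 3 (adjusted p = 0.0576 and 0.0534). The E17 difference was 0.93 (SE 0.15, adjusted p = 0.000224) and coronary Col4a2 rose 2.46-fold with stage (adjusted p = 4.22e-06). Col4a1 and Col4a2 together made up 63.1% and 74.4% of all collagen CPM in the 2 E17 coronary libraries, against 34.6% to 56.1% in the other 10.

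The other type IV chains did not follow them. Col4a5, which assembles with Col4a3 and Col4a4 in the kidney filter and with Col4a6 elsewhere, read 142 to 163 CPM in the E13 endocardial, 52.5 to 71.8 CPM in the E13 coronary, 181 and 181 CPM in E17 endocardial and 16.2 and 14.3 CPM in E17 coronary libraries. Coronary levels were lower by 1.37 on the log2 scale at E13 (log2 difference -1.37, SE 0.09, adjusted p = 6.28e-08) and lower still at E17 (-3.57, SE 0.14, adjusted p = 2.07e-09). Col4a6, at 0.419 to 8.17 CPM over the libraries, was not called at E13 (0.09, adjusted p = 0.768) and was lower in coronary libraries at E17 (-2.25, SE 0.41, adjusted p = 0.000568). Col4a3 and Col4a4, head to head with starts 72 bp apart, rested on 11 and 18 counts in E13 endocardium and 41 and 60 in E17 endocardium. Their pooled CPM ratios of E17 to E13 endocardium were 8.97 (exact 95% interval 4.53 to 19.4) and 8.02 (4.67 to 14.4), counting error only. Col4a3 shares 563 exon bases with an antisense gene, C430014B12Rik, and without strand its counts are uncertain.

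Col15a1 (ENSMUSG00000028339, chr4:47208161-47313167, plus strand), a proteoglycan collagen at the outer face of basement membranes, had the largest difference of the class at E13. It read 18.3, 12.8, 7.90 and 11.3 CPM in the E13 endocardial and 549, 369.6, 266 and 402 CPM in E13 coronary libraries. At E17 it stood at 76.6 and 105 CPM in endocardial and 1109 and 915 CPM in coronary libraries. Its difference was 4.96 (SE 0.28, adjusted p = 2.90e-08) at E13 and 3.48 (SE 0.35, adjusted p = 4.95e-06) at E17, and it rose with stage in both populations, by 2.83 in endocardial (adjusted p = 2.47e-05) and 1.35 in coronary libraries (adjusted p = 0.00114). Unlike most members that were higher in coronary libraries, it was highest in E13 coronary replicate 1 and lowest in replicate 3. Its upstream window (RefSeq, GRCm38.p6, chr4:47207762-47208011, plus strand) holds none of the 5 motifs searched and is printed for the comparison with Col3a1:
Col15a1: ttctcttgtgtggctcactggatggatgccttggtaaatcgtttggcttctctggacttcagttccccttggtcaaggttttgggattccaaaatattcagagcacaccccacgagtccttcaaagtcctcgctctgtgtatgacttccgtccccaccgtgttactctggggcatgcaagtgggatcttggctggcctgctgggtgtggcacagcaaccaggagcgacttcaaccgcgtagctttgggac

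Col18a1, the related gene whose C-terminal fragment is endostatin, an inhibitor of vessel growth, was high everywhere. It read 3484, 3525, 3776 and 3858 CPM in the E13 endocardial, 2943, 2772, 2665 and 2781 CPM in the E13 coronary, 2527 and 2476 CPM in E17 endocardial and 2669.8 and 2929.8 CPM in E17 coronary libraries. The small coronary deficit at E13 was called (-0.39, SE 0.05, adjusted p = 2.97e-05), the E17 value was 0.16 (SE 0.07, adjusted p = 0.0750), and the stage change of the difference was 0.55 (SE 0.09, adjusted p = 0.000461). Endocardial Col18a1 fell by 0.55 from E13 to E17 (SE 0.06, adjusted p = 5.73e-05), while the coronary value was 0.01 (adjusted p = 0.955). The E17 population difference passed with DESeq2 size factors (adjusted p = 0.0378), with DESeq2 (adjusted p = 0.0145), and without E13 coronary replicate 1 or E17 coronary replicate 1.

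Among cartilage collagens, Col2a1, Col9a1 and Col9a3 were highest in E13 coronary libraries. Col2a1, the main chain of cartilage fibrils, read 1.88, 1.34, 1.45 and 0.654 CPM in the E13 endocardial and 14.9, 44.9, 58.6 and 36.8 CPM in E13 coronary libraries, and 0.0648 to 0.754 CPM in the E17 libraries. Col9a1, whose type IX collagen decorates those fibrils, read 2.82, 4.61, 3.10 and 2.79 CPM in the endocardial replicates and 17.47, 81.03, 111.0 and 65.98 CPM in coronary replicates 1 to 4 at E13, and 0.539 to 2.33 CPM at E17. Col9a3, its partner chain, read 0.526, 0.240, 0.900 and 0.535 against 21.3, 58.2, 77.6 and 54.0 CPM at E13, and 0.389 to 2.61 CPM at E17. In all 3 genes coronary replicate 1 was the lowest of its group at E13 and still above every endocardial library. The E13 differences were 4.81 (SE 0.42, adjusted p = 1.20e-06) for Col2a1, 4.37 (SE 0.50, adjusted p = 1.03e-05) for Col9a1 and 6.58 (SE 0.51, adjusted p = 4.02e-07) for Col9a3.

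From E13 to E17, 5 of the 6 cartilage genes tested fell in coronary libraries and none rose, against 25.6% of all genes that fell. Pooled counts of Col2a1 went from 3164 to 17, a CPM ratio of E17 to E13 of 0.0124 (exact 95% interval 0.00720 to 0.0198, counting error only). Col9a1 and Col9a3 went from 5633 to 43 and from 4290 to 46 counts, ratios of 0.0176 (0.0127 to 0.0237) and 0.0247 (0.0180 to 0.0330). Col9a2, the remaining type IX chain, was more even, at 5.00 to 7.30 CPM in the E13 endocardial and 8.60 to 28.1 CPM in E13 coronary libraries (1.61, SE 0.31, adjusted p = 0.000689), and fell by 2.08 in coronary libraries with stage (SE 0.42, adjusted p = 0.00138).

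The type XI chains form mixed fibrils with type II collagen. Col11a1 read 11.3 to 12.7 CPM in the E13 endocardial, 14.9, 30.0, 42.1 and 26.8 CPM in the E13 coronary, 3.71 and 3.44 CPM in E17 endocardial and 48.3 and 17.6 CPM in E17 coronary libraries. Its coronary excess was 1.23 (SE 0.31, adjusted p = 0.00437) at E13 and 3.19 (SE 0.51, adjusted p = 0.000197) at E17, and it did not fall in coronary libraries (0.21, adjusted p = 0.673). Col11a2 was not called at E13 (-0.16, adjusted p = 0.556) and was lower in coronary libraries at E17 (-2.47, SE 0.34, adjusted p = 5.87e-05), with 11.5 and 8.36 CPM in endocardial and 1.51 and 2.04 CPM in coronary libraries. Col10a1, the marker of hypertrophic cartilage, had 6 and 3 counts in the 2 E13 groups and was not tested.

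Markers of cartilage and valve mesenchyme followed these genes in part. Of 8 such markers tested, 6 were higher and 1 was lower in coronary libraries at E13, with log2 differences from -3.56 to 6.18. Over all genes, 30.1% were higher and 29.9% lower. From E13 to E17, 7 of the 8 fell in coronary libraries (25.6% of all genes). At E17, 1 was higher, 1 was lower and 6 did not pass (-7.13 to 3.42). Their summed level was 209 to 265 CPM in the E13 endocardial libraries and 565, 726, 676 and 716 CPM in E13 coronary replicates 1 to 4. At E17 the sum was 128 and 114 CPM in endocardial and 47.4 and 36.1 CPM in coronary libraries. Matn1, a cartilage matrilin, was at 0 in every library. Over the E13 coronary libraries the summed level was highest in replicate 2, not in replicate 3 like Col2a1, Col9a1 and Col9a3. Sox9, the transcription factor that directs cartilage collagen genes, is 1 marker named after its values were seen. It stood at 16.8, 47.4, 72.0 and 36.3 CPM in E13 coronary replicates 1 to 4 and under 1 CPM in all endocardial libraries. The part of such cells in the cartilage collagen signal was not tested.

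**Figure D2:**
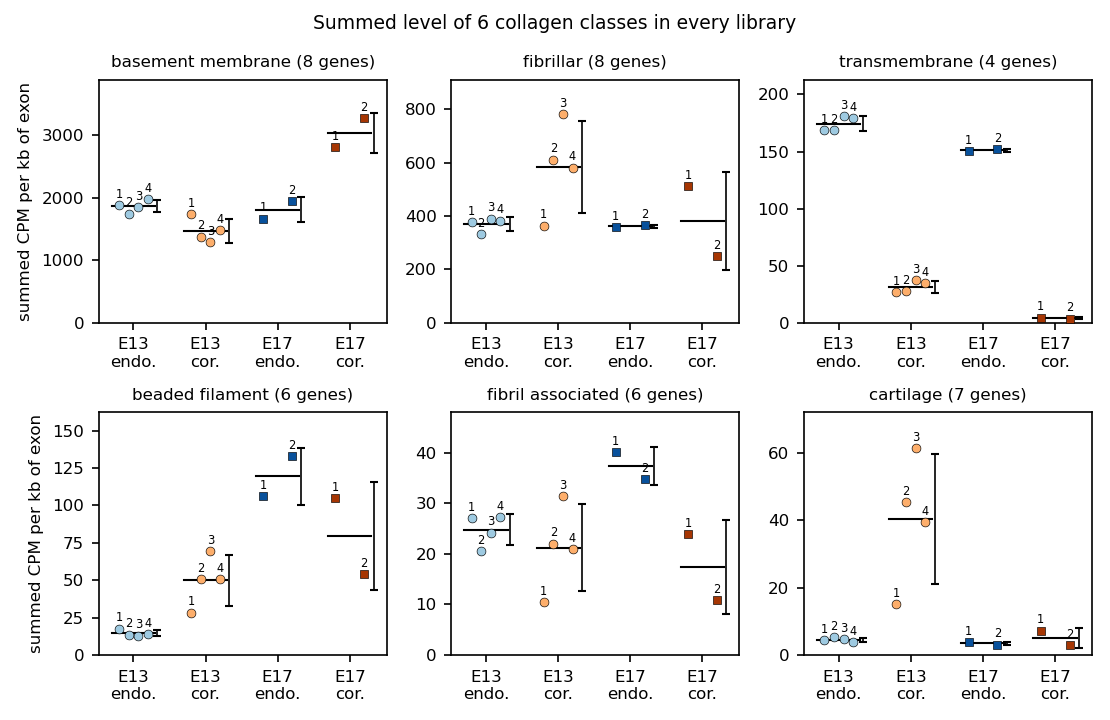
Summed CPM per kb of exon (linear axes from 0) of 6 collagen classes in each library, numbered by replicate, with the group mean as a line and its SD as a bar. The transmembrane class stands at 169 to 181 in E13 endocardial and 27.0 to 37.4 in E13 coronary libraries. At E17 it stands at 150.1 and 152 in endocardial and 4.51 and 3.61 in coronary libraries. The cartilage class is highest in E13 coronary libraries.

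Among the other classes, all 4 transmembrane collagens were lower in coronary libraries at both stages. These are single-pass membrane proteins with a collagenous part outside the cell. Col23a1 (ENSMUSG00000063564, chr11:51289920-51583918, plus strand) read 625, 608, 649 and 632 CPM in the E13 endocardial and 79.5, 66.9, 118 and 99.7 CPM in E13 coronary libraries. At E17 it read 625 and 659 CPM in endocardial and 6.93 and 5.57 CPM in coronary libraries. The endocardial value between stages was 0.03 (SE 0.16, adjusted p = 0.908), and coronary levels fell by 3.87 (SE 0.23, adjusted p = 9.77e-08). The population difference was -2.79 (SE 0.14, adjusted p = 1.43e-08) and then -6.69 (SE 0.26, adjusted p = 2.07e-09), a 103-fold deficit at E17. Its upstream window (RefSeq, GRCm38.p6, chr11:51289670-51289919, plus strand), printed as that of the member with the largest deficit, has 1 GGGCGG match on the minus strand in capitals:
Col23a1: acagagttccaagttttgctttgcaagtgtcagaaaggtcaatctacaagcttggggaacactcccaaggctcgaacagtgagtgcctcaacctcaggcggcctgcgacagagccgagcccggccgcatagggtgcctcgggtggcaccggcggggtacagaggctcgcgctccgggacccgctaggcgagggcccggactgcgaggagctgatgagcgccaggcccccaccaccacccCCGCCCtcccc

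The other transmembrane members followed the same order. Col13a1, found at cell adhesion sites, read 248, 260.4, 282 and 289 CPM in the E13 endocardial and 54.5, 67.6, 71.1 and 73.0 CPM in E13 coronary libraries, then 162 and 144 against 11.8 and 9.22 CPM at E17. Col25a1, known from neurons and the developing motor innervation of muscle, read 72.5, 74.6, 74.4 and 74.2 against 16.01, 13.12, 17.09 and 18.35 CPM at E13, and 60.0 and 55.3 against 8.30 and 6.35 CPM at E17. No coronary library overlapped an endocardial one. The differences were -2.02 (SE 0.10, adjusted p = 7.96e-09) and -3.87 (SE 0.16, adjusted p = 3.15e-09) for Col13a1, and -2.20 (SE 0.09, adjusted p = 4.62e-09) and -2.98 (SE 0.15, adjusted p = 1.17e-08) for Col25a1. Col17a1, the hemidesmosome collagen of skin, was low (2.98 to 7.86 CPM in endocardial, 0.595 to 1.01 CPM in coronary libraries) and lower in coronary libraries at both stages (-2.48 and -3.27). Summed per kb, the 4 genes held 6.79% to 7.33% of collagen signal in E13 endocardial, 1.24% to 1.64% in E13 coronary, 6.45% and 5.75% in E17 endocardial and 0.130% and 0.101% in E17 coronary libraries.

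Type VI collagen forms beaded microfilaments around cells from Col6a1, Col6a2 and another, longer chain. Col6a1 read 14.77, 12.30, 10.05 and 11.36 CPM in the E13 endocardial and 69.2, 119, 157 and 125 CPM in E13 coronary libraries, then 111 and 144 CPM in E17 endocardial and 255 and 134 CPM in E17 coronary libraries. Col6a2 moved with it, from 22.2 to 34.5 CPM in the E13 endocardial and 55.3 to 127 CPM in E13 coronary libraries to 129.9 and 162 CPM and 230.1 and 123 CPM at E17. Both were higher in coronary libraries at E13 (3.27, SE 0.27, adjusted p = 7.31e-07, and 1.76, SE 0.26, adjusted p = 7.98e-05), and the E17 values were 0.61 (adjusted p = 0.147) and 0.27 (adjusted p = 0.532). Without E17 coronary replicate 2 the Col6a1 value at E17 was 1.00 and passed (adjusted p = 0.0336). Both rose in endocardium, by 3.38 (SE 0.30, adjusted p = 9.12e-06) and 2.42 (SE 0.29, adjusted p = 7.75e-05).

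Col6a3, the usual long partner, also rose in endocardium. It read 119, 87.0, 90.9 and 101 CPM in the E13 endocardial, 61.2, 129, 196 and 125 CPM in the E13 coronary, 772 and 968 CPM in E17 endocardial and 179.9 and 85.8 CPM in E17 coronary libraries. The endocardial rise was 3.13 (SE 0.35, adjusted p = 4.11e-05), the E17 coronary deficit -2.71 (SE 0.44, adjusted p = 0.000223), and the E13 value 0.36 (adjusted p = 0.308), which passed without E13 coronary replicate 1 (0.62, adjusted p = 0.0310). Of the alternatives to Col6a3, Col6a6 was higher in coronary libraries, at 6.22, 14.2, 15.9 and 8.16 CPM at E13 and 36.69 and 15.51 CPM at E17 against 0.144 to 1.19 CPM in endocardial libraries. Its differences were 3.89 (SE 0.49, adjusted p = 2.58e-05) and 6.16 (SE 0.80, adjusted p = 3.83e-05). Col6a5 went the other way at about 1 CPM or less (77 endocardial and 13 coronary counts at E13, CPM ratio of coronary to endocardial 0.192, exact 95% interval 0.0977 to 0.348), and Col6a4, with 0 endocardial and 9 coronary counts at E13, was not tested.

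Fibril-associated collagens, which sit on fibril surfaces and link them to their surroundings, were divided. Col12a1, of dense connective tissue, read 0.913 to 1.61 CPM in the E13 endocardial and 19.1, 70.8, 106 and 54.5 CPM in E13 coronary libraries, then 2.13 and 0.648 CPM against 57.0 and 22.3 CPM at E17. Col16a1 read 6.69, 5.00, 6.70 and 6.72 against 28.3, 79.0, 112 and 67.7 CPM at E13 and 11.1 and 11.1 against 48.3 and 23.4 CPM at E17. Col14a1, close to Col12a1 in domain structure, went the other way, with 178, 136, 156 and 179 against 34.1, 37.3, 53.2 and 49.7 CPM at E13 and 253 and 226 against 88.5 and 40.7 CPM at E17. Both Col12a1 differences (5.77, SE 0.59, adjusted p = 4.36e-06, and 4.77, SE 0.84, adjusted p = 0.000451) and both Col14a1 differences (-1.90, SE 0.21, adjusted p = 8.21e-06, and -1.90, SE 0.30, adjusted p = 0.000170) were called. Col16a1 was higher in coronary libraries by 3.51 (SE 0.38, adjusted p = 6.24e-06) at E13 and 1.68 (SE 0.51, adjusted p = 0.0154) at E17, and the E17 call is lost without either E17 endocardial replicate or E17 coronary replicate 1 (adjusted p = 0.0679 to 0.150).

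The remaining members were low or alone in their class. Col26a1 read 126, 146, 153 and 135 CPM in the E13 endocardial, 13.14, 15.46, 29.70 and 21.02 CPM in the E13 coronary, 58.3 and 33.4 CPM in E17 endocardial and 12.3 and 3.89 CPM in E17 coronary libraries. It was lower in coronary libraries (-2.82, SE 0.29, adjusted p = 4.15e-06, and -2.54, SE 0.45, adjusted p = 0.000507) and lower at E17 in both populations (-1.61, adjusted p = 0.00417, and -1.32, adjusted p = 0.0206). Both type VIII chains, short network-forming collagens of vessels and cornea, were higher in coronary libraries at E13, Col8a1 with 31 endocardial and 219 coronary counts (CPM ratio 8.02, exact 95% interval 5.49 to 12.1) and Col8a2 with 33 and 97 counts (3.34, 2.23 to 5.12). Col28a1 went from 39 coronary counts at E13 to 170 at E17 (exact 95% interval of the CPM ratio 7.05 to 14.6). Col7a1, of the anchoring fibrils of skin, lay between 0.892 and 2.72 CPM. Col20a1 lay between 0.359 and 10.6 CPM and shares 79 exon bases with an overlapping gene on its strand, so its counts are uncertain. Col22a1, at 0.299 to 1.78 CPM, was called in no comparison, and Col19a1 was at 0 in 11 of 12 libraries.

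The stage comparisons carry the differences in genotype, tamoxifen and gate given above. In endocardium 13 of 41 rose and 6 fell from E13 to E17, with 16.2% and 15.6% of all genes called in those directions. In coronary libraries 9 rose and 15 fell, with 24.6% and 25.6% of all genes. Col5a3, Col6a1, Col6a2 and Col15a1 rose in both populations, Col3a1, Col13a1, Col25a1 and Col26a1 fell in both, and Col5a1, Col11a2 and Col24a1 rose in endocardium and fell in coronary libraries. The coronary calls of Col3a1 (-0.82, adjusted p = 0.0416) and Col6a1 (0.72, adjusted p = 0.0489) were lost in 11 and 13 of 16 alternative fits. Other stage calls also rested on single E17 libraries. Endocardial calls of Col11a1, Col17a1 and Col25a1 were lost without either E17 endocardial replicate, of Col11a2 and Col20a1 without replicate 1, and of Col24a1 and Col26a1 without replicate 2 (adjusted p = 0.0551 to 0.506). Coronary calls of Col6a2, Col6a6, Col8a1 and Col11a2 were lost without E17 coronary replicate 1, and of Col5a1, Col24a1 and Col26a1 without replicate 2 (adjusted p = 0.0771 to 0.542). The population difference itself changed with stage for 24 of 41 genes, 4 upward (Col4a1, Col4a2, Col11a1 and Col18a1) and 20 downward, with 16.2% and 16.5% of all genes called. Among these, Col4a4, Col6a2, Col9a3, Col11a1, Col15a1, Col16a1 and Col27a1 were not called without at least 1 of the E17 libraries (adjusted p = 0.0610 to 0.207). The count of 20 is 13 without E17 endocardial replicate 2 and 13 without E17 coronary replicate 2.

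**Figure D3:**
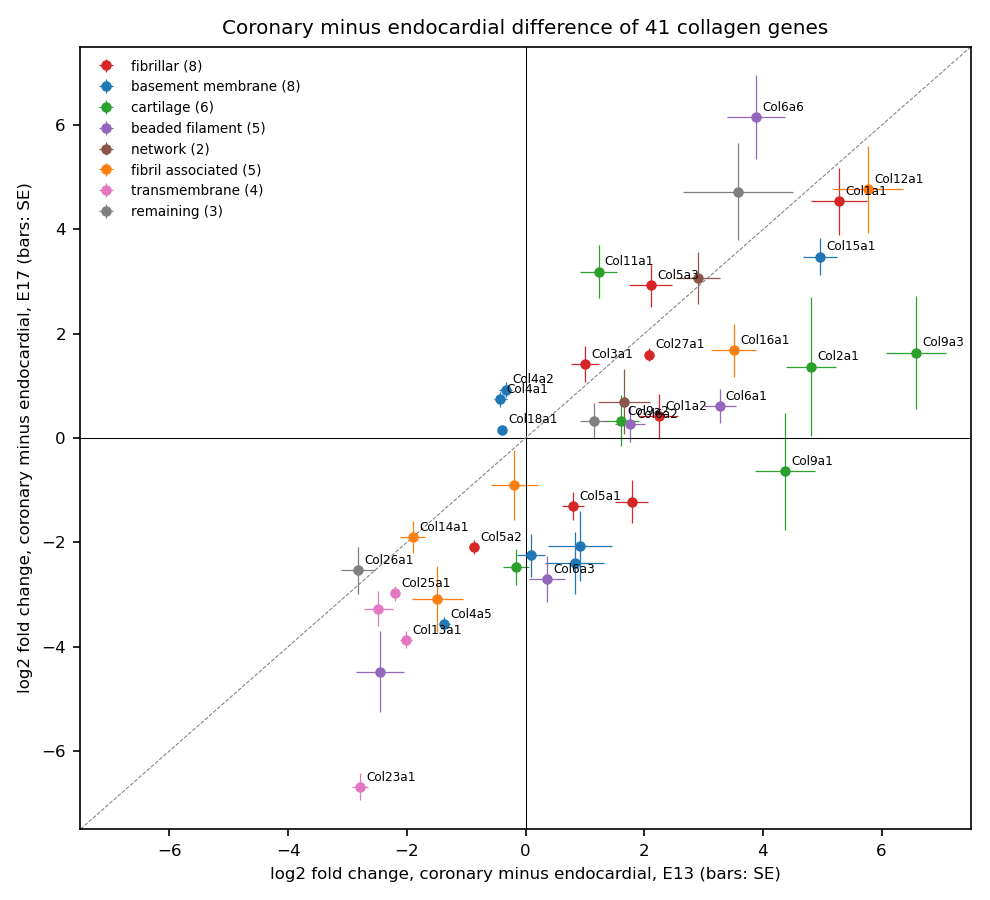
Log2 fold change of coronary against endocardial libraries at E13 (x axis) and E17 (y axis) for the 41 collagen genes tested, coloured by class, with SE bars and the dashed line of equal differences. Col4a1 and Col4a2 lie left of and above the origin, and Col5a1 and Col6a3 lie right of and below it.

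Chain ratios within a trimer were compared per library, on counts per kb of exon. The log2 ratio of Col4a1 to Col4a2 stayed within 0.57 to 0.81 in all 12 libraries, although both genes more than doubled in level in coronary libraries (2.48-fold and 2.46-fold). The log2 ratio of Col1a1 to Col1a2, whose chains join 2 to 1 in type I collagen, was -1.30, -2.70, -1.34 and -1.78 in the E13 endocardial and -2.48 and -3.11 in E17 endocardial libraries, but above 0 in all 6 coronary libraries. In linear terms Col1a1 was 0.116 to 0.407 of Col1a2 in endocardial and 2.29 to 2.66 times Col1a2 in coronary libraries. The endocardial and coronary libraries did not overlap. Which cells the transcripts of either chain came from was not tested. Col6a3 was 2.59 to 3.30 times Col6a1 in the E13 endocardial and 2.55 and 2.46 times in E17 endocardial libraries, against 0.324 to 0.457 and 0.259 and 0.235 in coronary ones. The log2 ratio of Col5a1 to Col5a2 was -1.96 to -1.83 in the E13 endocardial and -0.50 to -0.08 in E13 coronary libraries. With the longest transcript in place of the exon union the ratios shift by a constant, and that of Col1a1 to Col1a2 in coronary libraries becomes 0.13 to 0.34.

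**Figure D4:**
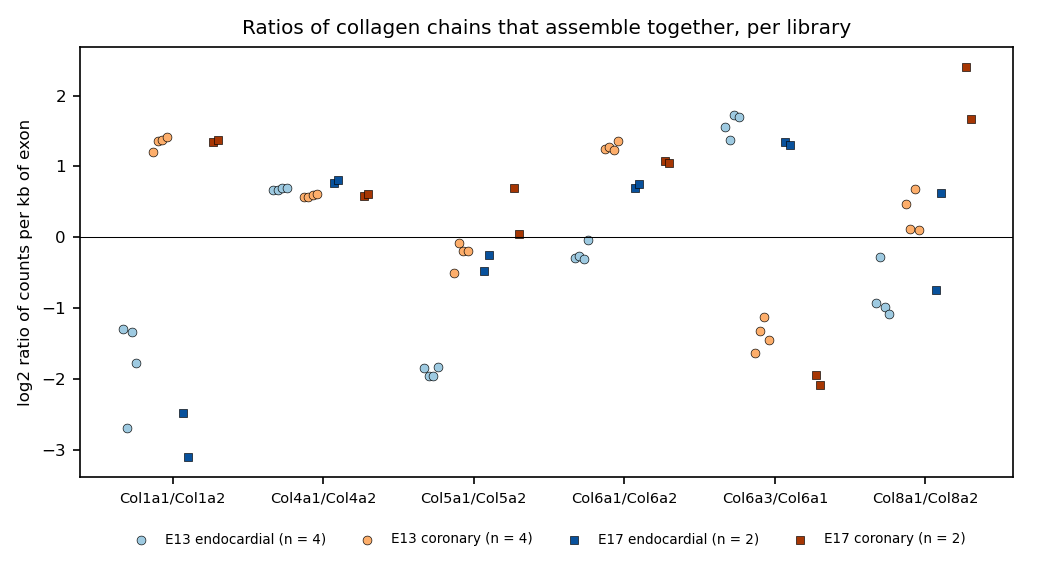
Log2 ratio of counts per kb of exon for 6 pairs of chains in each library, coloured by group. The Col4a1/Col4a2 points of all groups lie together between 0.57 and 0.81, while the Col1a1/Col1a2 and Col6a3/Col6a1 points of endocardial and coronary libraries lie on opposite sides of 0.

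The 4 E13 coronary libraries were not alike in collagen. Of 27 members with at least 10 CPM there, 21 were highest in replicate 3, a position held by 24.5% of the 9377 genes at that level, and 20 were lowest in replicate 1 (24.7% of genes). In 15 of the 27, replicate 3 was at least 2-fold above replicate 1, as in 2.64% of genes. All 5 cartilage genes and all 4 type VI genes were among the 15, with Col9a1 at 2.66 and Col12a1 at 2.46 on the log2 scale. Col4a1, Col4a2, Col15a1 and Col18a1 ran the other way, highest in replicate 1 (40.0% of genes) and lowest in replicate 3 (38.6% of genes), with log2 differences of -0.50, -0.52, -1.05 and -0.14. The median of this difference over all genes at that level was -0.06, so Col18a1 lay close to the typical gene. The class shares of per-kb collagen signal in replicates 1 to 4 were 16.7%, 28.6%, 34.4% and 26.2% for fibrillar and 79.5%, 64.4%, 56.6% and 67.1% for basement membrane genes, against 14.4% to 15.7% and 75.5% ± 0.654 (SD, n = 4) in the E13 endocardial libraries.

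Fibroblast and mural marker sums were also lowest in replicate 1 and highest in replicate 3, and the endothelial sum ran the other way. In replicates 1 to 4 the fibroblast sum was 904, 1783, 2334 and 1655 CPM, the sum of 10 mural markers 384, 602, 743 and 536 CPM, and the sum of 14 endothelial markers 10478, 8539, 7739.9 and 8983 CPM. Single markers behaved alike, with Pdgfra (fibroblast) at 60.9, 177, 215 and 147 CPM, Dcn (fibroblast) at 23.0, 37.8, 52.2 and 39.3 CPM, and Pecam1 at 1237, 973, 861 and 1024 CPM. At E13, 10 of 12 fibroblast and 6 of 10 mural markers were higher in coronary than endocardial libraries, against 30.1% of all genes. Of 14 endothelial markers, 3 were higher and 9 lower in coronary libraries, against 29.9% of all genes lower. The endothelial sum was 11296 to 12474 CPM in E13 endocardial libraries. Sums for cardiomyocyte markers (183 to 361 CPM) did not follow this order. Nor did the cartilage and valve sum (565, 726, 676 and 716 CPM), lowest in replicate 1 but highest in replicate 2. Epicardial marker sums (90.4 to 103 CPM, against 18.1 to 22.9 CPM in E13 endocardial libraries) did not either, while those of 7 glial and neural crest markers did, at 10.2, 22.9, 31.1 and 21.4 CPM. The part of fibroblasts or mural cells in the coronary collagen levels was not tested. Without replicate 1 the Col1a1 difference at E13 was 5.57 and without replicate 3 it was 5.02, the Col15a1 difference was 4.79 and 5.13, and the counts of members called stayed at 22 to 23 higher and 12 to 13 lower whichever library was left out.

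The 2 E17 coronary libraries showed a similar split, except for Col15a1. Of 21 members with at least 10 CPM, 13 were higher in replicate 1 by at least 0.5 on the log2 scale, as in 2.29% of 9249 genes. Counting any excess, 18 were higher in replicate 1, a count not made over all genes. The median log2 ratio of replicate 1 to replicate 2 was 0.93 for the members and -0.02 over all genes at that level. All 7 fibrillar genes were higher in replicate 1, and Col4a1, Col4a2 and Col18a1 were higher in replicate 2. Col15a1, which ran with Col4a1 at E13, was higher in replicate 1 (1109 against 915 CPM). The fibroblast sum was 1506 and 740.4 CPM, the mural sum 1124 and 863 CPM and the endothelial sum 15132 and 17232 CPM in replicates 1 and 2. At E17, 6 of 12 fibroblast markers were higher and 4 were lower in coronary libraries, against 26.5% and 26.1% of all genes. The log2 differences of the 12 ran from -2.79 to 6.91, with a median of 0.35. Dcn, 1 of those below 0, stood at 125 and 136 CPM in endocardial against 77.4 and 37.2 CPM in coronary libraries. Of 10 mural markers, 9 were higher and 0 lower, and the mural sum in endocardial libraries was 180.5 and 179 CPM. The endothelial sum there was 12988 and 13928 CPM, with 8 of 14 markers higher and 4 lower in coronary libraries. Col1a1 was higher in coronary libraries with either replicate left out (3.86 without replicate 1, 5.01 without replicate 2).

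**Figure D5:**
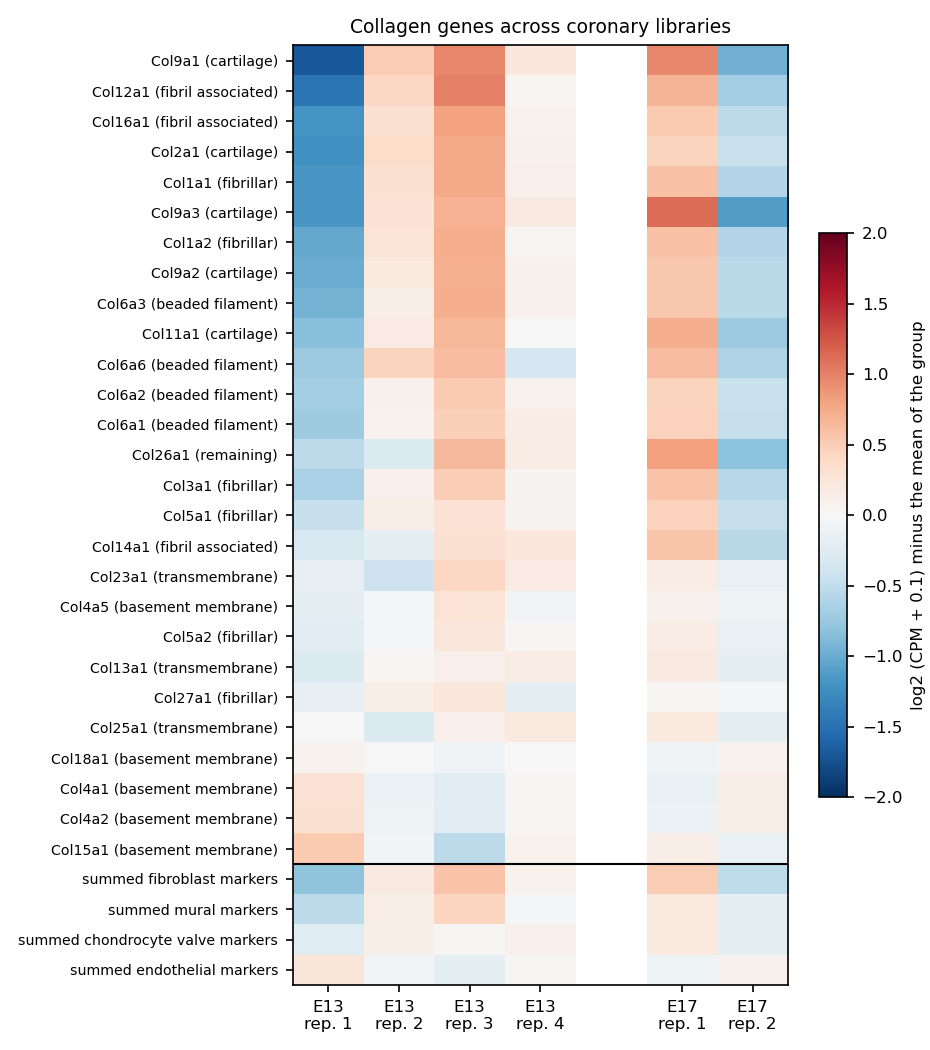
Log2 (CPM + 0.1) minus the group mean in each coronary library for 27 collagen genes, ordered by their difference between E13 replicates 3 and 1, and below the line 4 marker sums. Most collagen genes and the fibroblast and mural sums are low in E13 replicate 1 and high in replicate 3, and Col4a1, Col4a2, Col15a1, Col18a1 and the endothelial sum run the other way. The cartilage and valve sum is lowest in E13 replicate 1 and highest in E13 replicate 2.

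Genes that make and receive collagen were also counted. Of 35 genes for collagen folding, modification, trimming and crosslinking, 18 were higher and 11 lower in coronary libraries at E13 (30.1% and 29.9% of all genes), and 10 higher and 16 lower at E17 (26.5% and 26.1%). At E13 the 4 with the smallest adjusted p were P4ha2 (1.44, SE 0.08), a prolyl hydroxylase subunit needed for helix stability, Plod2 (1.92, SE 0.10), a lysyl hydroxylase for crosslinks, Creb3l1 (-1.89, SE 0.10), a transcription factor of collagen secretion, and Lox (3.19, SE 0.22), the lysyl oxidase that crosslinks fibrils. Pxdn, the peroxidase that crosslinks type IV collagen, was the most abundant that did not pass (0.07, SE 0.06, adjusted p = 0.331). At E17 they were Tll1 (-5.28, SE 0.27), a procollagen protease, Plod1 (1.68, SE 0.10), Creb3l1 (-2.49, SE 0.15) and P3h1 (-1.53, SE 0.10), a prolyl 3-hydroxylase. Serpinh1, the collagen chaperone, did not pass at E17 (0.17, SE 0.08, adjusted p = 0.104).

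In endocardium 14 of the 35 rose with stage and 1 fell (16.2% and 15.6% of all genes), led by P4ha2 (1.77), Tll1 (2.46), Lox (3.13) and P4ha1 (0.92), while Serpinh1 did not pass (0.10, adjusted p = 0.333). In coronary libraries 11 rose and 12 fell (24.6% and 25.6% of all genes), led by Sparc (1.42), a matrix protein that binds collagen, Plod1 (1.22), P3h4 (-1.21) and P3h3 (-1.17). Lox shows the change of side most plainly: it stood at 9.60 CPM in the E13 endocardial, 88.4 CPM in the E13 coronary, 85.0 CPM in E17 endocardial and 21.7 CPM in E17 coronary libraries (group means), and its stage change was -5.17 (SE 0.37, adjusted p = 1.51e-06). Lox and Pcolce also stand on the fibroblast marker list.

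Of 10 collagen receptors, 8 were tested and all 8 were higher in coronary libraries at E13, where 30.1% of all genes were. Mrc2, an endocytic receptor, read 4.45 against 91.3 CPM (4.35, SE 0.37), Ddr1 and Ddr2, receptor tyrosine kinases, 2.29 against 39.5 CPM (4.08, SE 0.38) and 0.615 against 12.4 CPM (4.26, SE 0.53), and the integrin chain Itga2 29.8 against 82.1 CPM (1.46, SE 0.11). At E17, 5 were higher, 1 was lower (Itga10, -0.63, SE 0.24) and 2 did not pass, where 26.5% of all genes were higher and 26.1% lower, with Itga2 (2.38, SE 0.17), Itga1 (1.81, SE 0.14), Mrc2 (4.28, SE 0.64) and Itgb1 (0.30, SE 0.07) having the smallest adjusted p. With stage, Itga1 and Itga2 fell in endocardium (-0.68 and -0.73), and Ddr1 and Mrc2 fell in coronary libraries (-1.96 and -1.64).

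Promoter windows of 250 bases were found in RefSeq (GRCm38.p6) for 35 of the 44 members, 38 windows in all. The windows of Col1a1, Col4a3, Col2a1, Col9a3, Col12a1, Col14a1, Col22a1, Col5a2 and Col26a1 were not used here. On either strand, GGGCGG was present in 57.9% of member windows against 32.7% of all 32851 windows, CCAAT in 34.2% against 33.8%, TATAAA in 13.2% against 12.4%, TGANTCA in 2.6% against 6.7% and CAGACA in 23.7% against 17.1%. Member windows had a median GC content of 59.0% against 52.4% overall. Some windows hold exon bases of the gene or a neighbour, and a match is a string of letters, not a binding site.

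The genes whose log2 CPM followed 3 members most closely over the 12 libraries were listed as a description. For Col1a1 they were Tril, Ptpn13 and Fat3 (Pearson's r 0.987 each), Slc44a5 (0.984) and Cspg4 (0.981), the last a pericyte marker on the mural list. For Col4a1 they were Epas1 (0.986), Aldh3a2 and Cd81 (0.981), Triobp (0.978) and Adgrf5 (0.976). Col15a1 was followed by Anxa1 (0.992), Anxa5 (0.990), Myl12a and Cyb561 (0.986) and Rab11fip5 (0.984). The 12 points share groups and batches, and the genes were picked as the closest of all those tested.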

How the data were processed

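RNA from 12 sorted-cell libraries was made into polyA RNA-seq libraries with a kit that does not mark strand and sequenced as single reads, per the labels' protocols. The authors deposited expected counts per gene. RSEM 1.2.3, CASAVA 1.8.2, cutadapt 1.3 and the build GRCm38 are named in the submitters' processing notes, which do not give their roles here. Of the expected counts, 18.3% were not whole, and all were rounded. Gene coordinates and exon lengths come from GENCODE M21 (GRCm38).

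Genes were kept by edgeR's filterByExpr (10 counts, 15 in total), scaled by TMM and tested with edgeR 4.0.16 (R 4.3.3) quasi-likelihood, with 4 group means over 12 libraries, 8 residual degrees of freedom and Benjamini-Hochberg adjustment over 15171 genes in each of 5 comparisons. SE is the log2 fold change divided by the square root of F. Exact intervals cover counting error only.

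The batch label pairs 1 endocardial with 1 coronary library. Over 9481 genes, the deviations of the 2 libraries of a batch had r = 0.377, 0.682, 0.367 and 0.478 at E13 and 0.38 at E17. Pairs from different batches at E13 had r from -0.508 to 0.439. The highest of these joined endocardial batch 3 to coronary batch 4, above the 0.367 of batch 3 itself. With 2 libraries a group, both E17 batches give the same r by construction. The batch label could not enter the stage comparisons, since each batch holds 1 stage.

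Collagen genes reaching 10 CPM in a group are given by library, or by range where their replicates are summarised, and others by counts and ranges. From the biosynthesis and receptor lists, each comparison names at most 4 genes, by lowest adjusted p, and the gene of highest level that did not pass, beside further genes named after their values were seen (Pcolce, Emcn, Sox9, Postn and Itga10). The members and lists were chosen with earlier results of these data known. Protein sequences were not analysed here. Alternatives were DESeq2 size factors, DESeq2 1.42.0, other filters, only the groups compared, the batch block and leaving out each library.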

Additional observations from a re-analysis of the deposited data

Results flagged for a closer look

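The difference between coronary and endocardial libraries changed from E13 to E17 for 24 of the 41 collagen genes tested, by the test of the change itself in edgeR's quasi-likelihood fit. It moved upward for Col4a1 (1.18), Col4a2 (1.26), Col11a1 (1.97) and Col18a1 (0.55). It moved downward in the fibrillar genes Col1a2 (-1.82), Col5a1 (-2.10), Col5a2 (-1.23), Col24a1 (-3.01) and Col27a1 (-0.48). In basement membrane genes it moved downward for Col4a3 (-3.23), Col4a4 (-2.99), Col4a5 (-2.20), Col4a6 (-2.34) and Col15a1 (-1.48). Type VI genes moved by -2.66 (Col6a1), -1.49 (Col6a2) and -3.08 (Col6a3), and cartilage genes by -5.01 (Col9a1), -4.94 (Col9a3) and -2.31 (Col11a2). The transmembrane genes moved by -1.85 (Col13a1), -3.90 (Col23a1) and -0.78 (Col25a1). Col16a1 moved by -1.84, a call lost in 10 of 17 alternative fits. Over all 15171 genes tested, 16.2% moved upward and 16.5% downward. Stage cannot be told apart from genotype, tamoxifen and gate in these values.

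In E13 endocardial replicate 2, 3 genes stood apart from the other replicates of the group: Col5a2 was lowest at 1618 CPM, Col9a1 was highest at 4.61 CPM and Col16a1 was lowest at 5.00 CPM. These are 3 of 82 groups of 4 checked, and chance flags about 1 in 20.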

How the results depend on the processing

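Of 3393 values recomputed under the alternatives, 3253 kept their direction and their side of the threshold, 93 were no longer past it, 47 newly passed it and 0 reversed. The count of collagen genes lower at E17 in endocardium was 6 and became 10 when only the groups compared were fitted. With each library left out in turn it ranged from 2 to 8, with 2 without E17 endocardial replicate 2. Higher genes in coronary libraries between stages (9) ranged from 5 to 10, with 5 without E17 coronary replicate 1. Genes whose difference moved downward with stage (20) ranged from 13 to 22, with 13 without E17 endocardial replicate 2 or E17 coronary replicate 2. A group left with 1 library is assumed to vary like the others. With the batch label as replicate block, 22 genes were higher and 13 lower at E13, 14 and 17 at E17, and 4 and 21 moved with stage. The block added Col9a3 at E17 (adjusted p = 0.0444) and the stage change of Col20a1 (adjusted p = 0.0207), and changed no other call. With 2 libraries a group at E17, and few counts for Col4a3, Col4a4, Col6a5 and Col28a1, small differences were not detectable at this depth.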
